A study of Homo sapiens with 6 samples.

Results

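DNA methylation and PRC2 genes were compared between control and IGF2BP3 KD cells: the DNA methyltransferases *DNMT1*, *DNMT3A* and *DNMT3B*, the methylation cofactor *UHRF1*, the TET dioxygenases *TET1*, *TET2* and *TET3*, and the PRC2 core genes *EZH2*, *SUZ12* and *EED*. They were chosen by symbol and are 10 of the 60480 gene identifiers in the deposited count table. RNA-seq was performed in OE-19, an established epithelial line of human adenocarcinoma of the esophagogastric junction (AEG). The control group comprised 3 libraries of cells with a control shRNA (shControl, named Puro in the table), and the IGF2BP3 KD group comprised 3 libraries of cells with an shRNA against the RNA-binding protein IGF2BP3 (shIGF2BP3). All 6 libraries came from poly(A) RNA of cells grown in RPMI1640 with fetal bovine serum and penicillin/streptomycin, and were made with a directional kit. The sources do not say whether the IGF2BP3 KD libraries share 1 shRNA, or whether the replicates were separate cultures, so the p-values measure only the spread between these libraries.

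In mammalian cells, DNA methyltransferases place methyl groups on cytosines of CpG dinucleotides. DNMT3A and DNMT3B set new marks, while UHRF1 recognizes half-methylated DNA behind the replication fork and recruits DNMT1, which copies the mark to the new strand. TET dioxygenases oxidize 5-methylcytosine and so start its removal. Polycomb repressive complex 2 (PRC2) methylates lysine 27 of histone H3 through EZH2 or its paralog EZH1, which need SUZ12 and EED as partners, and Polycomb repressive complex 1 (PRC1) reads this mark. DNMT1, UHRF1 and EZH2 are known to be made mostly in dividing cells.

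Of the 10 genes, 7 were lower in IGF2BP3 KD cells (*DNMT1*, *UHRF1*, *DNMT3A*, *TET3*, *EZH2*, *SUZ12* and *EED*) and 1 was higher (*TET2*). *DNMT3B* did not pass the test, and *TET1* had too few counts to be tested. Called genes are those with an adjusted p under 0.05 in the quasi-likelihood test of edgeR, adjusted by the Benjamini-Hochberg method over 19778 tested genes, of which 10.6% were lower and 9.87% were higher, 20.4% in all. Adjusted p-values given here are from this fit. The shares over all tested genes include genes with few counts, in which a change is harder to call. The log2 fold changes of the 7 lower genes ran from -0.56 to -0.22, that is, 67.9% to 86.0% of the control level. The median over the 9 tested genes was -0.28, against 0.01 over all tested genes. The 3 IGF2BP3 KD values lay below the 3 control values in 7 genes and above them in 2, whereas 17.8% of all tested genes lay below and 18.0% above in this way, 35.8% in all. For 1 gene alone, an exact permutation test of 3 against 3 libraries (two-sided) can reach no p under 0.1.

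The knockdown was visible in its target. *IGF2BP3* (ENSG00000136231) had 7416, 7363 and 6532 counts in control libraries and 777, 792 and 794 counts in IGF2BP3 KD libraries, a log2 fold change of -3.03 (standard error 0.06), although 1521 of its exon bases are shared with *MALSU1*. Total counts were 58966114 to 69989087 in control and 53424071 to 63008137 in IGF2BP3 KD libraries. The epithelial markers were present, with *ERBB2* at 13074 and *KRT8* at 2627 CPM in control cells, CPM being counts scaled to library size with TMM factors. Of 8 markers of immune, stromal and endothelial cells, 6 were under 1 CPM, and *COL1A2* and *CD3E* had no count in any library. The summed level of the 8 was 54.5 to 61.2 CPM in control and 83.1 to 83.6 CPM in IGF2BP3 KD libraries. Nearly all of it came from *CD68* and *COL1A1*, which were both higher (log2 fold changes 0.54 and 0.50). *CD68* shares 1852 of its 2163 exon bases with other genes, so its counts may come partly from them. The part of these rises in the results below was not tested.

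Promoters of the 10 genes were searched because many genes of the DNA synthesis phase (S phase) carry E2F-type sites there. RefSeq promoters on GRCh38.p14 (250 bases before to 50 after a start) gave 22 windows for the 10 genes. The words TTTCGCGC, TTTGGCGC, TTTCCCGC, TTTGGCGG, TTTCCCGG and TTTGCCGC were sought on both strands. *DNMT1*, *UHRF1*, *EZH2* and *SUZ12*, all lower in IGF2BP3 KD cells, held 1 of these words in 5 windows, given here 5′ to 3′ on the strand of the gene with the word, or its reverse complement, in capitals.
DNMT1, chr19:10194937-10194966, minus strand: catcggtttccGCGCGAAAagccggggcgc
UHRF1, chr19:4909476-4909505, plus strand: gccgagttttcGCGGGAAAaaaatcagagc
UHRF1, chr19:4909973-4910002, plus strand: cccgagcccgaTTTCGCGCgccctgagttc
EZH2, chr7:148884272-148884301, minus strand: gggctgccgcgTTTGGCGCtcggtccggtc
SUZ12, chr17:31936807-31936836, plus strand: cgacccctaatTTTCCCGCgaattcagttc
Relative to the annotated start of its window, the word stood at position -2 in *DNMT1*, -14 and -160 at different starts of *UHRF1*, 1 in *EZH2* and -189 in *SUZ12*. Such a word was in 5.33% of all 35116 promoter windows and in at least 1 window of 6.42% of 27305 genes, expressed or not. Of the tested genes with a promoter window, 1216 held such a word and 10748 did not. Among those with it 21.4% were lower and 9.54% were higher, and among those without it 12.8% and 12.7%. The other 3 lower genes, *DNMT3A*, *TET3* and *EED*, held none of the 6 words in these windows, which says nothing on E2F binding there.

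Shorter promoter words were more common. The CCAAT box, which NF-Y binds, was found on either strand in 7 of the 10 genes, including *DNMT3B* and *TET1*, against 39.7% of all genes. These shares per gene are not like for like, since the 10 genes had 22 windows and all 27305 genes had 35116. Per window, the CCAAT box was in 34.6% of all windows. The box stood in 4 places in *EZH2* and in 3 places each in *UHRF1* and *TET1*. TTTGAA, a word of the CHR element of mitotic genes, was in windows of *DNMT3A*, *TET2* and *SUZ12* and of 18.2% of all genes. TTCGAA was in none of the 10 genes.

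In 3′ UTRs, 2 words were searched that an earlier look at these same data had picked for the direction of change of their genes, so the shares given here restate that choice. Among tested genes with GATTACT and without ACACATC in the 3′ UTR 37.4% were lower and 5.44% were higher. The shares were 7.95% and 31.0% with ACACATC alone, 25.6% and 12.1% with both words, where *TET2* belongs and more genes were lower than higher, and 13.2% and 12.0% with neither. *TET2* was the only one of the 10 genes with either word, and it held both, as shown in capitals.
TET2, chr4:105279166-105279194, plus strand: cccaaacatttGATTACTacatgtgcatt
TET2, chr4:105276851-105276879, plus strand: cttacaactctACACATCtgtgaccactt
They lie at bases 2658 and 343 of its 3284-base 3′ UTR (GENCODE v44, hg38). GATTACT was in 6.97% and ACACATC in 9.16% of 19129 3′ UTRs of at least 50 bases. TGGAC, the DNA form of the binding motif that the study describes for IGF2BP3, was in the 3′ UTRs of 6 of the 10 genes and of 58.4% of all genes. *DNMT3A*, whose 3′ UTR has 6405 bases, held it 8 times. The 3′ UTRs of *DNMT1* (321 bases), *EZH2* (263 bases), *EED* (285 bases) and *DNMT3B* (1453 bases) held none.

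The maintenance genes had the largest falls of the 10. *DNMT1* (ENSG00000130816, chr19:10133342-10231286), the maintenance methyltransferase, was at 175, 182 and 182 CPM in control libraries and at 120, 123 and 123 CPM in IGF2BP3 KD libraries. The groups were far apart relative to their spread, with means of 180 ± 3.86 CPM in control and 122 ± 2.001 CPM in the knockdown (SD, n = 3 each). This was a log2 fold change of -0.56 (95% interval -0.63 to -0.49, edgeR adjusted p = 8.1e-07), and *DNMT1* ranked 73 of all tested genes by p. *UHRF1* (ENSG00000276043, chr19:4903080-4962154), its recruiter, was at 70.8, 76.1 and 75.1 CPM in control libraries and at 51.0, 55.2 and 55.5 CPM in IGF2BP3 KD libraries. Its lowest control library stood well above its highest IGF2BP3 KD library. The fall was to 72.9% of control, a log2 fold change of -0.46 (95% interval -0.57 to -0.34, edgeR adjusted p = 9.0e-05).

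*UHRF1* is the only one of the 10 genes in the S-phase list of Seurat, and none is in its G2/M list. The other S-phase genes fell with these genes: of 42 tested, 35 were lower (83.3%), 1 was higher (2.38%) and the median log2 fold change was -0.36. Their summed level was 4320.0 to 4463 CPM in control and 3363 to 3404 CPM in IGF2BP3 KD libraries. Of 54 G2/M genes, 20 were lower (37.0%), 1 was higher (1.85%) and the median was -0.09. The shares over all tested genes were 10.6% lower and 9.87% higher. The part of the S-phase share in the falls of *DNMT1* and *UHRF1* was not tested, and in bulk RNA fewer cells in S phase and less of an mRNA per cell cannot be told apart.

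The de novo methyltransferases did not move together. *DNMT3A* (ENSG00000119772, chr2:25227855-25342590) was at 38.3, 38.0 and 38.3 CPM in control libraries and at 31.0, 33.4 and 31.8 CPM in IGF2BP3 KD libraries. The control libraries were almost level and all IGF2BP3 KD libraries were below them. The log2 fold change was -0.25 (95% interval -0.37 to -0.13, edgeR adjusted p = 0.0067), or 83.9% of control. *DNMT3B* (ENSG00000088305, chr20:32762385-32809359) was at 26.5, 25.4 and 23.5 CPM in control libraries and at 27.2, 26.6 and 30.1 CPM in IGF2BP3 KD libraries. The highest control and the lowest IGF2BP3 KD library were nearly level, although the groups did not overlap. Its log2 fold change of 0.15 (95% interval -0.00 to 0.31) did not pass the test (adjusted p = 0.17, edgeR), so a rise to 124% of control and no change both lie within its error.

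Among the TET genes, *TET3* and *TET2* differed in direction, although the call of *TET2* did not hold in all fits. *TET3* (ENSG00000187605, chr2:73984910-74108176), the most abundant of the family here, was at 117, 116 and 118 CPM in control libraries and at 99.6, 98.5 and 104 CPM in IGF2BP3 KD libraries. All IGF2BP3 KD libraries were below all controls, and the log2 fold change was -0.22 (95% interval -0.30 to -0.14, edgeR adjusted p = 0.0014). *TET2* (ENSG00000168769, chr4:105145875-105279816) was at 38.5, 38.4 and 41.3 CPM in control libraries and at 45.8, 44.02 and 47.1 CPM in IGF2BP3 KD libraries. Here every IGF2BP3 KD library was above every control, with a log2 fold change of 0.21 (95% interval 0.09 to 0.33, edgeR adjusted p = 0.017), or 116% of control. This call was lost without control replicate 1 or 2 and without IGF2BP3 KD replicate 1 or 3, where the log2 fold change was 0.19 to 0.21. *TET1* (ENSG00000138336, chr10:68560337-68694487) had 4, 5 and 5 counts in control and 10, 5 and 1 counts in IGF2BP3 KD libraries, which overlap and are too few for a comparison.

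The PRC2 core genes were lower by like amounts. *EZH2* (ENSG00000106462, chr7:148807257-148884321), the catalytic subunit, was at 100.1, 106 and 98.2 CPM in control libraries and at 81.1, 80.0 and 85.1 CPM in IGF2BP3 KD libraries. Its groups stood clear of each other, and the log2 fold change was -0.30 (95% interval -0.40 to -0.21, edgeR adjusted p = 5.0e-04). *SUZ12* (ENSG00000178691, chr17:31937007-32001038), the scaffold of the complex, was at 79.2, 73.1 and 77.3 CPM in control libraries and at 59.8, 61.0 and 56.7 CPM in IGF2BP3 KD libraries. It had the largest PRC2 fall, with a log2 fold change of -0.37 (95% interval -0.48 to -0.26, adjusted p = 2.9e-04, edgeR), which overlaps the interval of *EZH2*. *EED* (ENSG00000074266, chr11:86201212-86278813), which binds methylated lysine 27, was at 60.1, 59.7 and 63.7 CPM in control libraries and at 51.7, 48.8 and 50.5 CPM in IGF2BP3 KD libraries. All of its IGF2BP3 KD libraries were again below all controls, and the log2 fold change was -0.28 (95% interval -0.39 to -0.17, adjusted p = 0.0019, edgeR).

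**Figure D1:**
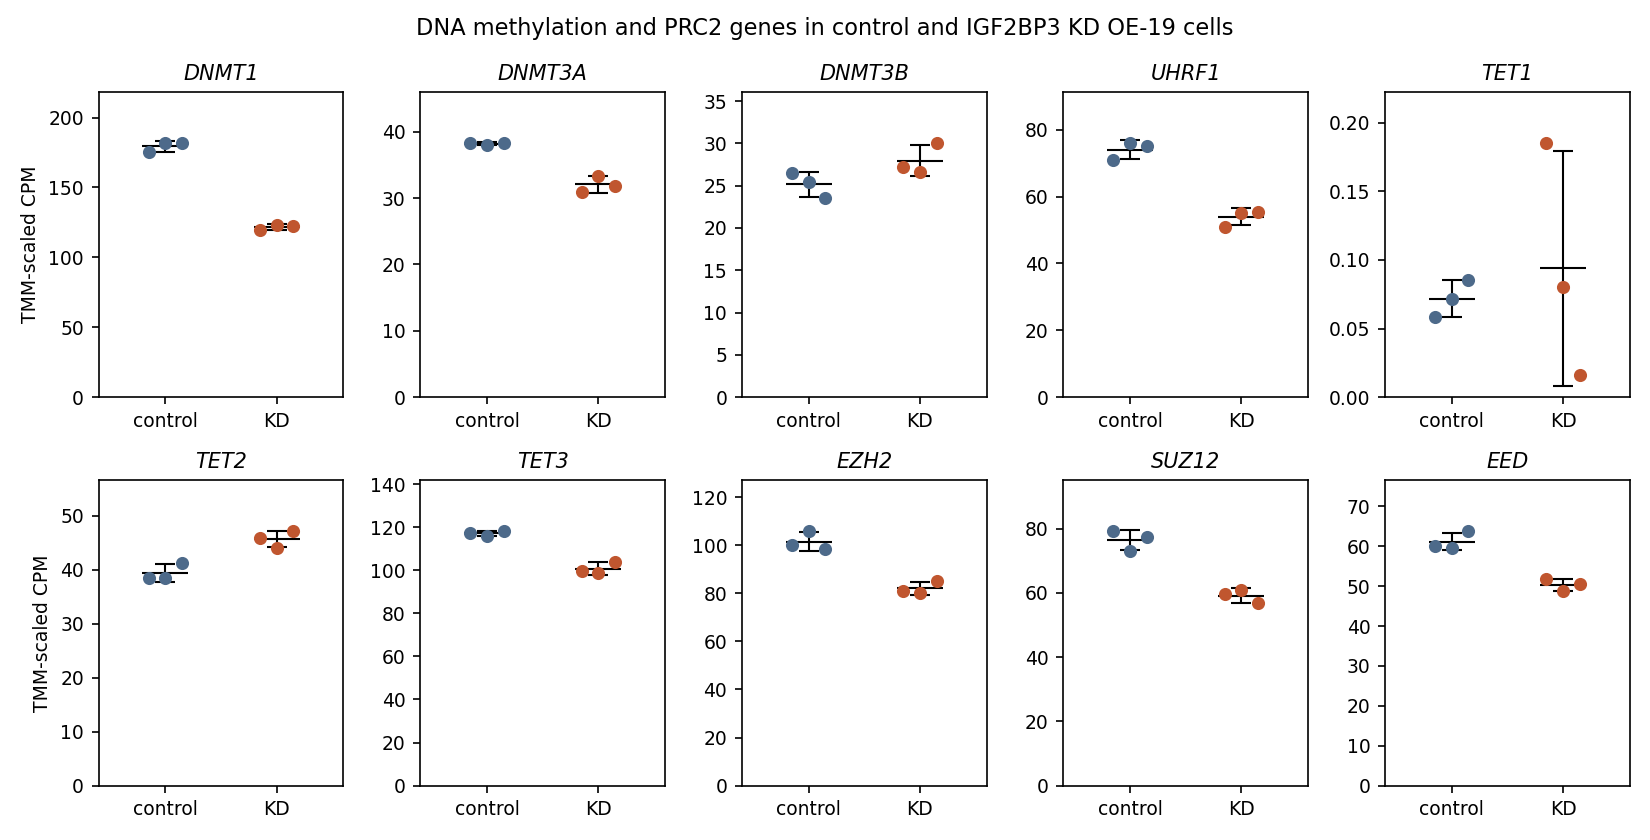
Level of each of the 10 genes in each library, in TMM-scaled CPM on linear axes that start at 0, for 3 control and 3 IGF2BP3 KD libraries. Points are libraries, the long line is the mean and the bars are the SD. The IGF2BP3 KD points lie below the control points in 7 panels and above them for *DNMT3B* and *TET2*, and *TET1* is near 0 in both groups.

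Reads of near copies and overlapping genes could be split between them. The strand setting of the counting, which matters for overlaps on opposite strands, is not given in the sources used here. In GENCODE v44, 7 of the 10 genes shared no exon base with another gene. *DNMT1* shared 83 exon bases with *S1PR2*, and *TET3* shared 390 with ENSG00000235499, both on the same strand. *EED* shared 287 with ENSG00000288809 (opposite strand) and *MIR6755* (same strand). The partial copy *SUZ12P1* had 164, 297 and 240 counts in control and 248, 292 and 213 counts in IGF2BP3 KD libraries, far below the 3228 to 5422 counts of *SUZ12*.

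Levels between genes were compared per kilobase of 1 main transcript. In control cells, *EZH2* was the highest at 38.2 ± 1.47 CPM per kb (SD, n = 3). It was followed by *DNMT1* at 34.0 ± 0.732, *EED* at 29.3 ± 1.07, *UHRF1* at 18.98 ± 0.712 and *SUZ12* at 17.0 ± 0.692 CPM per kb. *TET3* was at 9.71 ± 0.0923, *DNMT3B* at 5.80 ± 0.346, *TET2* at 4.11 ± 0.171 and *DNMT3A* at 4.06 ± 0.0193 CPM per kb. *TET2* and *DNMT3A* overlapped, and no other neighbours in this order did. *TET1* was at 0.00747 CPM per kb, so that *TET2* and *TET3* made up nearly all TET mRNA. In IGF2BP3 KD cells the order changed at *DNMT1*, which at 23.1 ± 0.379 CPM per kb came level with *EED* at 24.1 ± 0.715, with overlapping libraries. *UHRF1* (13.8 ± 0.648) and *SUZ12* (13.2 ± 0.492 CPM per kb) also overlapped there. The order depends on the length used: per kilobase of all annotated exons, *UHRF1* was the highest in control cells at 14.4 CPM per kb and *EZH2* was at 9.41.

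**Figure D2:**
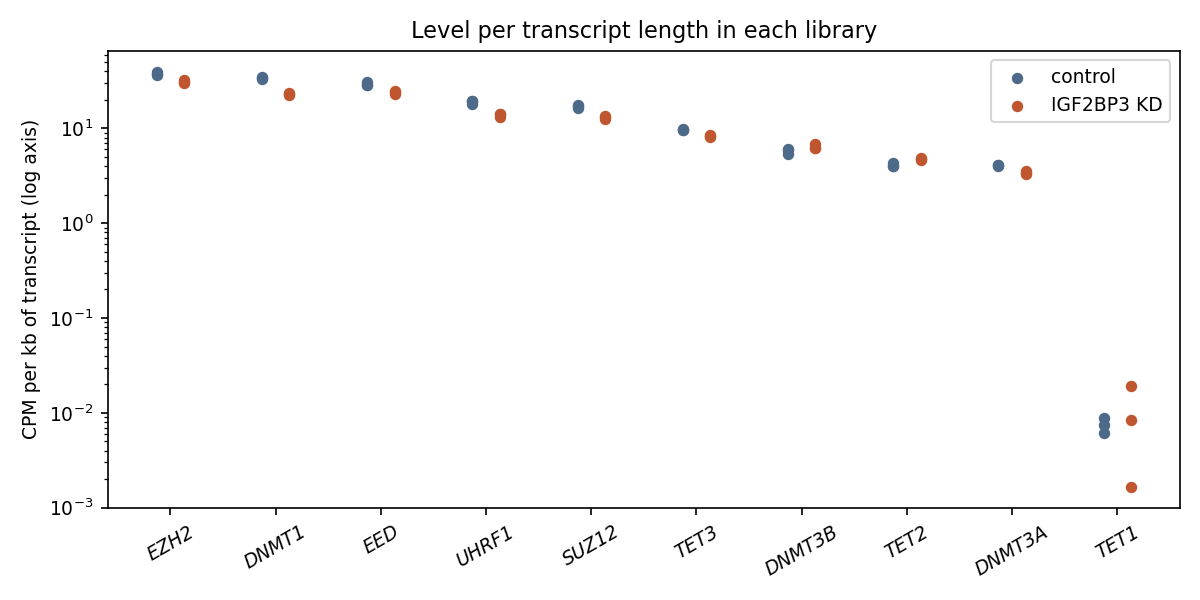
Level per kilobase of main transcript of each gene in each library, on a log axis, in the order of the control mean. Points are single libraries (3 control, 3 IGF2BP3 KD), and the control values run from 38.2 CPM per kb for *EZH2* to 4.06 for *DNMT3A*, with *TET1* far below.

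Ratios of counts within a library do not depend on scaling between libraries. In all, 12 ratios between these genes, their paralogs, *PCNA* and the PRC1 genes *CBX8* and *CBX7* were compared, chosen after values were seen. In 8 of them the groups did not overlap, which gave the smallest two-sided exact permutation p of 0.1 (0.15 after Benjamini-Hochberg adjustment over the 12), so none can pass a threshold of 0.05. *EZH2* to *EZH1* was 2.17, 2.55 and 2.42 in control libraries and 1.69, 1.53 and 1.69 in IGF2BP3 KD libraries, so *EZH1*, the subunit of resting cells, took a larger share of the pair. *TET3* to *TET2* went from 2.98 ± 0.101 to 2.21 ± 0.0327 (SD, n = 3), without overlap. *DNMT3A* to *DNMT3B* went from 1.52 ± 0.0935 to 1.15 ± 0.0981, also without overlap.

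*DNMT1* to *UHRF1* moved little, from 2.43 ± 0.0416 to 2.26 ± 0.0729, but its groups did not overlap either. Ratios within the PRC2 core did overlap: *EZH2* to *SUZ12* was 1.33 ± 0.103 in control and 1.39 ± 0.0990 in IGF2BP3 KD cells, with an exact permutation p of 0.5. *EZH2* to *EED* was 1.66 ± 0.115 and 1.63 ± 0.0599, with an exact permutation p of 0.9. Against *PCNA*, the sliding clamp of DNA replication, *DNMT1* went from 0.712 ± 0.0420 to 0.635 ± 0.0113 without overlap. The ratio of *EZH2* to *PCNA* was 0.402 ± 0.0226 and 0.427 ± 0.0115, with overlap and an exact permutation p of 0.3.

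**Figure D3:**
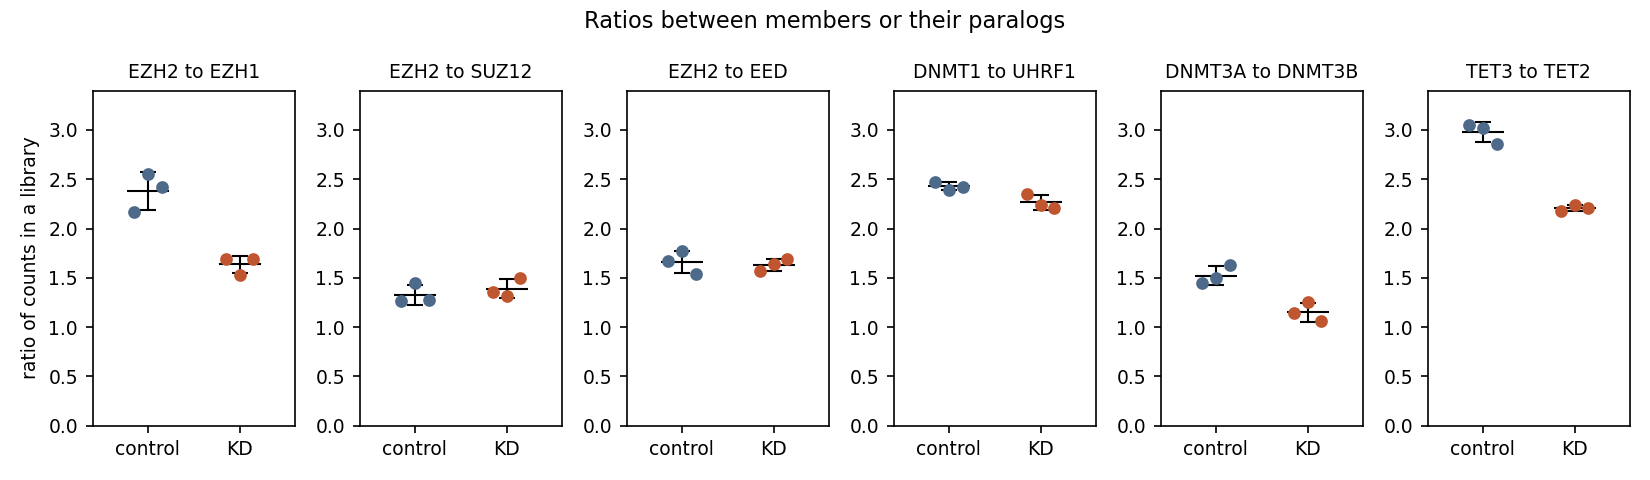
Ratios of counts between 2 genes in the same library, for 6 of the 12 ratios, on 1 linear axis that starts at 0. Points are libraries (3 control, 3 IGF2BP3 KD), lines are means and bars are SDs. *EZH2* to *EZH1*, *DNMT1* to *UHRF1*, *DNMT3A* to *DNMT3B* and *TET3* to *TET2* are lower in each IGF2BP3 KD library, and *EZH2* to *SUZ12* and *EZH2* to *EED* overlap.

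Other genes of the same pathways numbered 71, of which 67 were tested. Of these, 18 were lower (26.9%) and 10 were higher (14.9%), against 10.6% and 9.87% of all tested genes. The median log2 fold change was -0.02. The DNA methylation cofactors held most of their changes on the lower side, with 4 of 7 tested genes lower (57.1%), none higher and a median of -0.21. *PCNA* fell by 0.39 on the log2 scale, from 253 ± 9.83 to 192 ± 1.16 CPM (SD, n = 3). *HELLS*, a chromatin remodeler needed for methylation of repeats, and its partner *CDCA7* had log2 fold changes of -0.32 and -0.21, and *LIG1*, the ligase of replicated DNA, one of -0.26. *PCNA*, *HELLS* and *CDCA7* are also in the S-phase list. *UHRF2*, the paralog of *UHRF1*, was not called, with 48.4 CPM in control and 49.2 CPM in IGF2BP3 KD cells. *DNMT3L* had too few counts to be tested.

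Of 8 tested methyl-CpG readers, 1 was lower and 1 was higher (12.5% each, near the shares over all tested genes). *MBD2*, a repressor that binds methylated DNA, rose from 22.9 ± 2.70 to 31.2 ± 1.39 CPM, or by 0.45 on the log2 scale (adjusted p = 0.0029, edgeR). Its relative *MBD3* was lower (log2 fold change -0.18), a call lost on leaving out any 1 of 5 libraries. Among the demethylation cofactors, *TDG*, the glycosylase that removes oxidized cytosines, was lower (-0.34 on the log2 scale). The 2-oxoglutarate producers *IDH2* (0.28) and *IDH1* (0.11) were higher on the same scale. Of 6 tested genes of the S-adenosylmethionine cycle, which supplies the methyl group, *MAT2A* was at 0.09 and *MTR* at -0.15 on the log2 scale, both called but lost in several fits that left out a library.

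The other PRC2 subunits did not follow the core. Of 10 tested, 2 were lower, 2 were higher and the median was 0.04. *LCOR*, whose locus also encodes the PRC2 accessory protein PALI1, was at 148, 150 and 141 CPM in control libraries and at 92.8, 95.02 and 94.7 CPM in IGF2BP3 KD libraries. The log2 fold change was -0.64 (adjusted p = 7.6e-07, edgeR), a value of the whole locus that does not separate the product PALI1 from LCOR. Of the Polycomb-like subunits, *PHF19* was at -0.18 and *PHF1* at 0.32 on the log2 scale, both called, while *MTF2* at -0.20 was not called. The call of *PHF1* was lost without control replicate 2 and without IGF2BP3 KD replicate 3 (edgeR adjusted p = 0.058 and 0.057). *EZH1* rose from 42.7 ± 3.01 to 50.2 ± 2.07 CPM, or by 0.23 on the log2 scale (adjusted p = 0.02, edgeR), and was called in 7 of 12 alternative fits. The histone chaperones *RBBP4* (158 and 157 CPM) and *RBBP7* (128 and 127 CPM), which PRC2 shares with other complexes, were not called.

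Among PRC1 genes, 8 of 23 were lower (34.8%), 3 of 23 were higher and the median log2 fold change was -0.03. The shares over all tested genes were 10.6% lower and 9.87% higher, so the lower share was above that background despite the median near 0. The E3 ligase genes *RING1* (0.15) and *RNF2* (-0.10 on the log2 scale) were not called. The largest changes were in subunits that define variants of the complex: *PCGF6* (-0.75), *PHC1* (-0.67, with 1107 exon bases shared with *M6PR*) and *RYBP* (-0.35 on the log2 scale) were lower. The call of *PHC1* was lost without control replicate 3 and without IGF2BP3 KD replicate 2 (edgeR adjusted p = 0.064 and 0.052). *CBX7*, a reader of methylated lysine 27, was at 49.0, 50.5 and 46.9 CPM in control libraries and at 69.7, 64.3 and 69.4 CPM in IGF2BP3 KD libraries, a log2 fold change of 0.48 (adjusted p = 7.5e-05, edgeR). It shares 1612 exon bases with 2 other genes. *CBX8*, another such reader, was lower (-0.34), and the ratio of *CBX8* to *CBX7* went from 0.485 ± 0.0526 to 0.275 ± 0.00979 (SD, n = 3) without overlap. Of 5 tested Polycomb opponents, the lysine 27 demethylase *KDM6B* was higher (0.20), a call that held in only 5 of 12 alternative fits. Its relative *KDM6A* was not called.

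**Figure D4:**
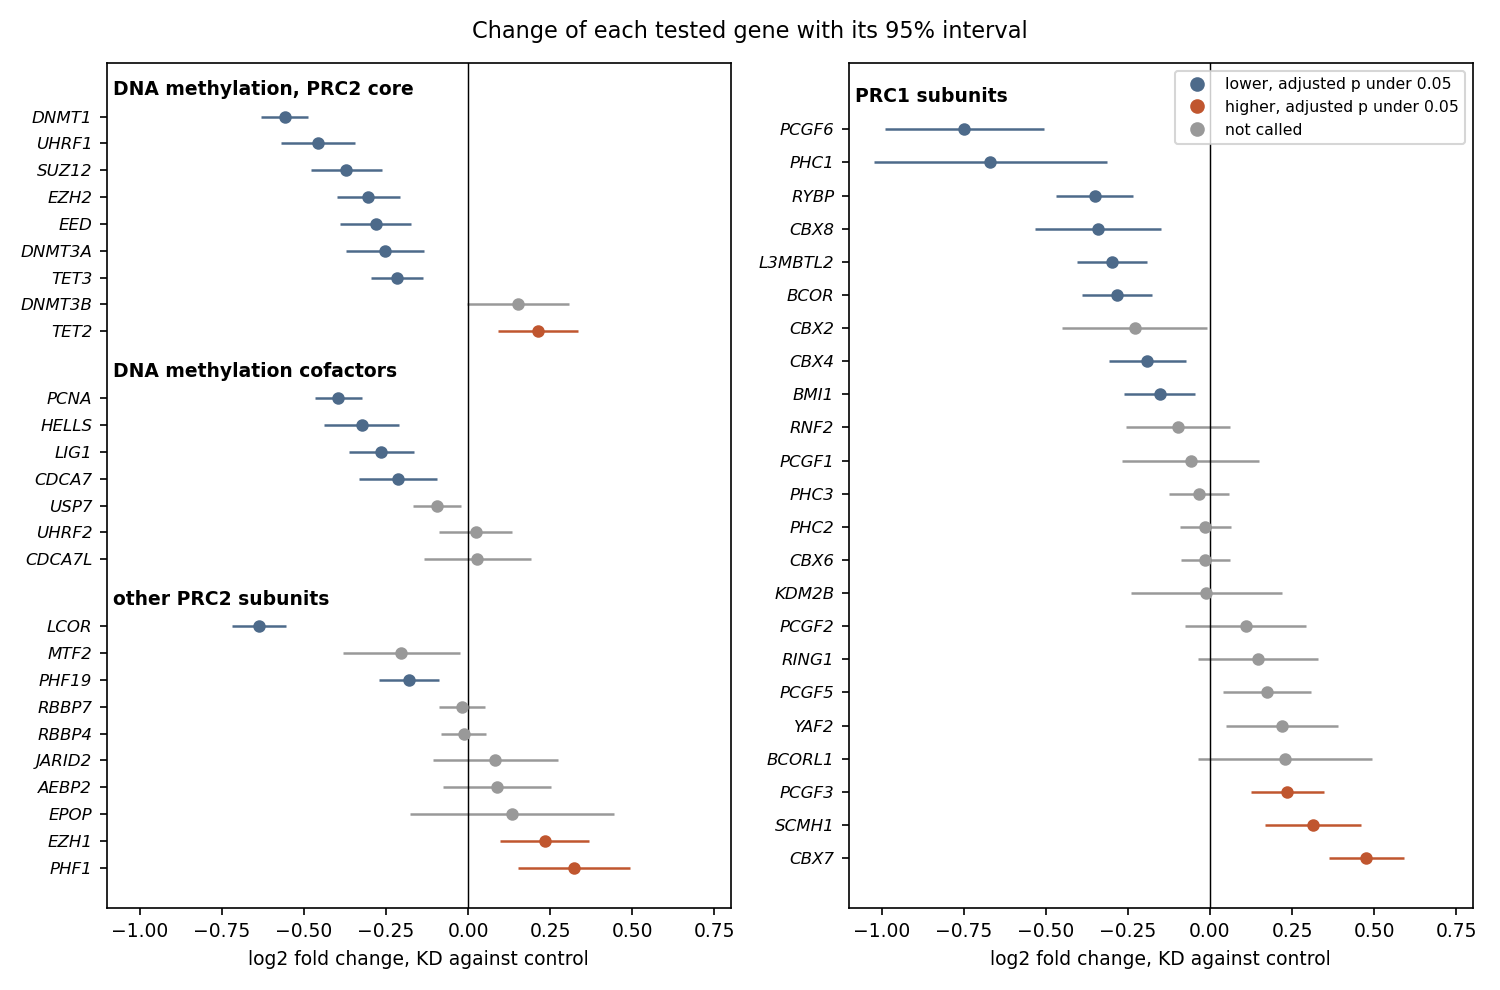
Log2 fold changes of IGF2BP3 KD against control cells with 95% intervals, for the 9 tested genes, the DNA methylation cofactors, the other PRC2 subunits (left) and the PRC1 subunits (right). Blue and red points are called lower and higher at an adjusted p under 0.05 by edgeR's quasi-likelihood test and grey points are not called, with *DNMT1* at -0.56, *LCOR* at -0.64 and *CBX7* at 0.48.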

How the data were processed

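The authors sequenced poly(A) RNA of OE-19 cells as paired reads, aligned them to hg38 with HISAT2, and deposited raw read counts per gene from featureCounts, without normalization. The submitters' processing notes also name fastp. Versions, the annotation release and the strand setting are not given in the sources used here. The table has 60612 entries, of which 132 repeated entries of 44 identifiers were left out. Each column was matched to its library by name, 3 control and 3 IGF2BP3 KD. Total counts per library were 53424071 to 69989087.

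The test was edgeR 4.0.16 under R 4.3.3, with TMM factors of 0.992 to 1.01, filterByExpr (minimum count 10, total 15), and glmQLFit and glmQLFTest on group alone, and Benjamini-Hochberg adjustment over 19778 genes at 0.05. The square root of the common dispersion was 0.148. The script was tested on simulated data. Of planted log2 fold changes of 0.5 in size, 41% were called over all levels and 83.3% at 5 CPM or more. There were 10 false calls, and smaller changes were not planted. Fold changes compare IGF2BP3 KD with control, and intervals are 95% intervals of this fit. Alternatives were DESeq2 1.42.0, RLE factors, library totals only, a block for the replicate number, no filter, a filter of 10 counts in all 6 libraries, and the omission of single libraries. Same-numbered libraries did not deviate together (correlations -0.0317 to -0.0045), so the numbers were not taken as pairs.

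The 10 genes and all lists were chosen with earlier results of these data known. Named are these genes, *IGF2BP3*, of each other list up to 3 called genes each way with the largest changes, relatives that were not called, and, for lists of silenced genes, those with the highest levels. *CDCA7* and *CBX8*, beyond this rule, were named after their values were seen. S-phase and G2/M lists came from Seurat 5.3.0. Gene positions, lengths and 3′ UTRs came from GENCODE v44 and promoters from RefSeq on GRCh38.p14, with Python 3.11.15, pandas 2.3.3 and matplotlib 3.10.9. Protein sequences were not used here. 1 gene of the demethylation list is not reported here.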

Additional observations from a re-analysis of the deposited data

How the results depend on the processing

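The count of 7 lower genes held in each of the 12 alternatives, with the same 7 genes called. The 1 higher gene, *TET2*, was called in 8 of them. When single libraries were left out, the number of the 10 genes called higher was 0 to 1, being 0 without control replicate 1 or 2 and without IGF2BP3 KD replicate 1 or 3. For the other pathway genes the count higher was 6 to 10 (6 without control replicate 2 and without IGF2BP3 KD replicate 3) and the count lower was 12 to 18. Over all tested genes, 1641 to 1970 were lower and 1414 to 1741 were higher in these fits, and 2416 and 2074 with DESeq2. The replicate number as a block, with no evidence of pairing, left 7 of the 10 genes lower and 1 higher, and 2026 genes lower and 1875 higher in all. Of 50 named genes that were called, 14 were lost in at least 1 alternative, 7 of them with the block and 1 with DESeq2 (*SMYD3*). *CDKN2A*, not called, changed sign to 0.0025 on the log2 scale with library totals only, and ranged from -0.091 to 0.053 with 1 library left out, and the cause was not tested. With 3 libraries a group, small changes such as that of *DNMT3B* (0.09 to 0.19 over the alternatives, never called) were within the error. Protein, DNA methylation and histone marks were not analysed here.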

Other observations

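Genes that DNA methylation or PRC2 are known to silence were described from lists that were also chosen with earlier results known. Of 30 germline genes that are usually methylated in somatic cells, 26 were under 2 CPM on average and only 7 could be tested. The 4 genes over 50 CPM were cancer-testis antigens, which were already expressed in control cells. *MAGEA3* was at 227 CPM in control and 219 CPM in IGF2BP3 KD cells, *MAGEA6* at 132 and 128 CPM, and *MAGEA12* at 70.7 and 74.5 CPM, none of them called. *CTAG2* was called higher, with 105 ± 6.23 and 118 ± 1.30 CPM (SD, n = 3) and a log2 fold change of 0.17, a call that 5 alternatives lost. Of 25 developmental genes known as PRC2 targets, 19 were under 2 CPM on average, and of 9 tested, *GATA3* was lower (log2 fold change -0.46, edgeR adjusted p = 0.004) and none was higher. *FOXC1* (34.3 and 31.0 CPM), *CDKN2A* (31.4 and 31.1 CPM) and *LMX1B* (23.3 and 24.3 CPM in control and IGF2BP3 KD cells) had the highest levels and were not called.

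Imprinted genes, which are expressed from 1 parental allele, changed in both directions, with a median log2 fold change of 0.12. Of 12 tested, 3 were lower and 3 were higher (25.0% each, against 10.6% and 9.87% of all tested genes). These counts include *GNAS* (higher, 0.20) and *PHLDA2* (lower, -0.22), called in 2 and 1 of the 6 fits without a library. *PEG10*, a gene derived from a retrotransposon, was at 28.1, 23.9 and 24.9 CPM in control libraries and at 42.7, 41.1 and 42.1 CPM in IGF2BP3 KD libraries, a log2 fold change of 0.71 (adjusted p = 3.0e-05, edgeR). The antisense RNA *KCNQ1OT1* was also higher (0.52), but without the strand setting its reads cannot be told apart from those of *KCNQ1*. *MEST* (-0.42, with 1314 exon bases shared with other genes) and *GRB10* (-0.20) were lower on the same scale. Of 24 other histone lysine methyltransferases, 6 were lower (25.0%) and 2 were higher (8.33%). *KMT5A*, the lysine 20 monomethyltransferase of histone H4, fell from 51.6 ± 2.42 to 34.5 ± 2.06 CPM (log2 fold change -0.58), and *SETD7* (-0.37) and *SETDB1*, which methylates lysine 9 of histone H3 (-0.31), were also lower. *NSD1*, which methylates lysine 36, was higher (0.30).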
